A study of Mus musculus with 2 samples.

Results

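The genes described here encode proteins that join liver cells to each other: 3 connexins of gap junctions (Gjb1, Gjb2, Gja1), 5 claudins of tight junctions (Cldn1, Cldn2, Cldn3, Cldn12, Cldn14), the tight junction membrane protein occludin (Ocln) and the zonula occludens scaffold protein Tjp1. They were taken as a list of 10 genes by symbol, with no value in the rule but with earlier results of these data known, and all 10 were found among 18193 named genes. Together they had 25 probe sets, each made of short probes that read a transcript together.

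Livers of C57BL/6J mice aged 2 months were profiled 3 days after tail vein injection of adenovirus, 1000000000 plaque-forming units per mouse. The Ad-control group received an empty vector and the Ad-PDK4 group a vector made to overexpress PDK4, the kinase that inactivates pyruvate dehydrogenase in mitochondria. RNA of 4 livers (Ad-control) and of 3 livers (Ad-PDK4) was pooled, and each pool was read on 1 array, so that all animals carried vector and no uninfected liver was compared. There were no replicate arrays, no test could be made, and every value describes these 2 pools. The labels name neither the promoter of the vector nor the cells that it reached.

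Gap junctions are clusters of channels that connect the cytoplasm of neighbouring cells. In the liver they pass ions and small messengers between hepatocytes, and hepatocytes build them mainly from Gjb1 and Gjb2. Tight junctions run along the bile canaliculus and keep bile apart from blood; claudins set which ions and water can pass, and occludin and Tjp1 help to organise the strands.

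Signals are linear intensities as deposited. A probe set counted as measured when it reached a floor, the median signal of the non-control probe sets of its array, 93.4 for Ad-control and 99.9 for Ad-PDK4, and 22 of the 25 junction probe sets did so on both arrays. Differences are log2 Ad-PDK4 minus log2 Ad-control, relative to the median of the 20151 probe sets measured on both arrays. The error scale was the SD between probe sets of the same gene, 0.35 on the log2 scale over 4326 genes, which leaves out error shared by a whole array and the variation between mice. The array number limits the precision. Albumin and the other hepatocyte markers were present in both pools (7 of 7 measured on both arrays). The only Pdk4 probe set read 234.4 in Ad-control and 177.0 in Ad-PDK4, which does not show overexpression, and the sources used here do not say whether it reads the vector's transcript. The direction of each difference therefore rests on the labels.

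No junction gene differed by 1.5-fold or more. Each gene being represented by its brightest probe set, 0 of 10 genes were at least 1.5-fold higher and 0 of 10 at least 1.5-fold lower, where 9.21% and 5.20% of all 10389 measured genes were. The 10 differences ranged from -0.50 (Cldn12) to 0.15 (Cldn14), with 8 genes below 0 and 2 above. Their median was -0.15, beside 0.015 for all measured genes, of which 48.4% lay below 0. The 4 differences farthest from 0 were those of Cldn12, Ocln, Gjb2 and Cldn3. All 4 were lower in Ad-PDK4 on the brightest probe set, although Ocln and Cldn3 also had probe sets above 0. These 4 lay beyond the probe set SD of 0.35. The share of all measured genes that did was not counted, so the SD does not set them apart. Of the 500 probe sets closest in signal to Cldn12, 8.4% lay at least as far from 0. The shares were 13.8% for Gjb2 and 18.2% for each of Ocln and Cldn3.

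**Figure D1:**
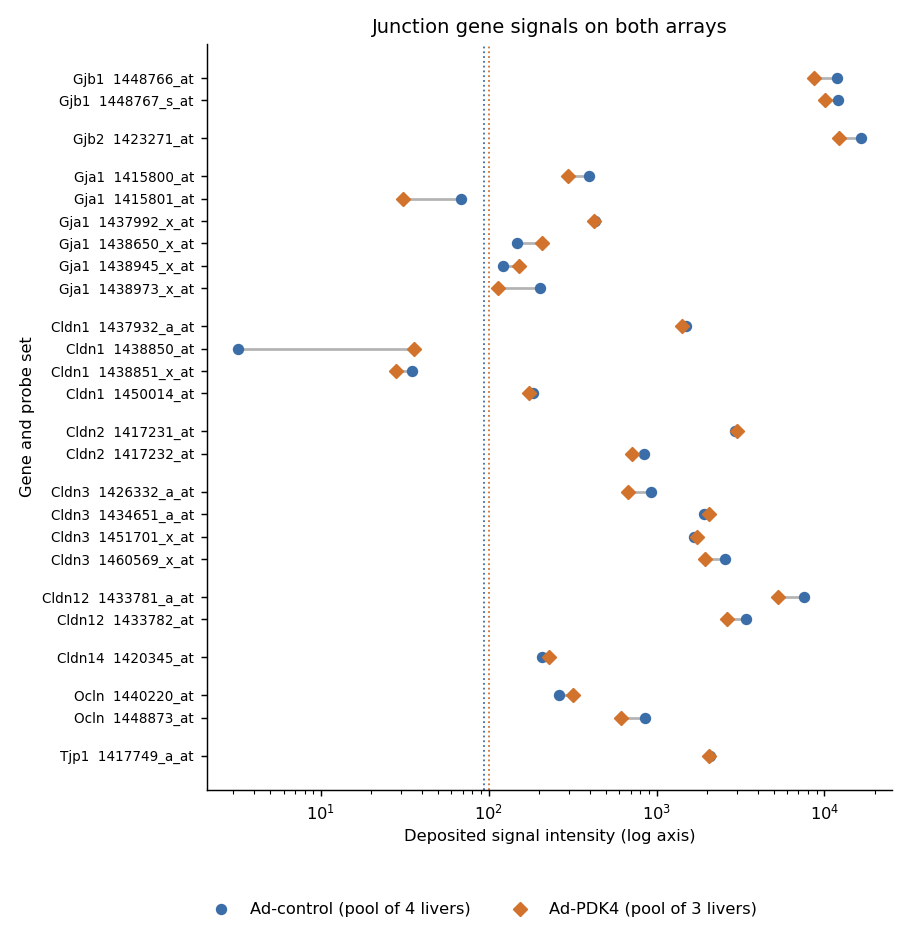
Deposited signal (log axis) of the 25 junction probe sets on the Ad-control array (blue circles) and the Ad-PDK4 array (orange diamonds); dotted lines mark the median signal of each array, below which a probe set was not counted as measured. Each point is 1 pooled sample with no error bar. The points of Gjb1, Gjb2 and Cldn12 sit to the left for Ad-PDK4 in every probe set, while those of Tjp1 coincide.

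The direction of all of these depends on the reference. The poly-A spike-in controls, bacterial transcripts added to the RNA before labelling, had a median difference of -0.54 over 24 probe sets, and with the differences centred on them all 10 junction genes lay above 0, from 0.042 (Cldn12) to 0.70 (Cldn14). The hybridization controls, a separate set of control probe sets, had a median difference of -0.26 over 18 probe sets, and no centring on them was run. Cldn12, Ocln, Gjb2 and Cldn3 lay below that value, Gjb1 (-0.25) nearly on it, and the other junction genes above it. The sources used here do not give the amounts of either control added. Either reference shifts all genes by the same amount and leaves their order untouched. Values below are therefore read relative to other transcripts of the same pool.

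The hepatocyte connexins were slightly lower in Ad-PDK4. Gjb2, whose channels pass small signalling molecules between hepatocytes, had 1 probe set, with a signal of 16583 in Ad-control and 12277 in Ad-PDK4. That is a log2 difference of -0.42, or 1.34-fold lower. Gjb1, the other main hepatocyte connexin, was read by 2 probe sets. Probe set 1448766_at gave 11900 in Ad-control and 8673 in Ad-PDK4 (-0.44), and 1448767_s_at gave 12066 and 10031 (-0.25). All 3 probe sets thus pointed the same way, by 1.19-fold to 1.36-fold. They were bright, in a signal range where the typical probe set was also a little below 0: the 500 probe sets closest in signal to Gjb2 had a median of -0.077. Of those 500, 13.8% lay at least as far from 0 as Gjb2 did, and the shares for the Gjb1 probe sets were 11% and 34.8%. With a loess correction for signal level, Gjb2 stood at -0.34 and Gjb1 at -0.19.

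Gja1, the connexin of heart muscle that in liver is known mainly from stellate, endothelial, Kupffer and capsule cells rather than hepatocytes, had no settled direction. Of its 6 probe sets, 5 were measured. Probe set 1437992_x_at, the brightest, read 430.1 in Ad-control and 425.7 in Ad-PDK4, a difference that rounds to 0. The others went both ways, from -0.81 (1438973_x_at, signal 202.5 against 114.2) over -0.39 (1415800_at) and 0.33 (1438945_x_at) to 0.52 (1438650_x_at, 146.7 against 207.6). Probe set 1415801_at was under the floor on both arrays, with 68.1 and 31.0. The SD of 0.54 between the measured Gja1 probe sets was wider than the 0.35 of genes in general, which covers all signal levels. The Gja1 probe sets lay at low signal, where differences spread more. Among the 500 probe sets closest in signal to each, the SD of the differences was between 0.45 and 0.58. Probe set 1438973_x_at was the only junction probe set past 1.5-fold, 1 of 22 lower and 0 of 22 higher, beside 6.52% and 8.84% of all measured probe sets. The suffix _x_at marks probe sets in which some probes can match other transcripts, and _s_at, as for Gjb1, those whose probes are shared by several transcripts.

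**Figure D2:**
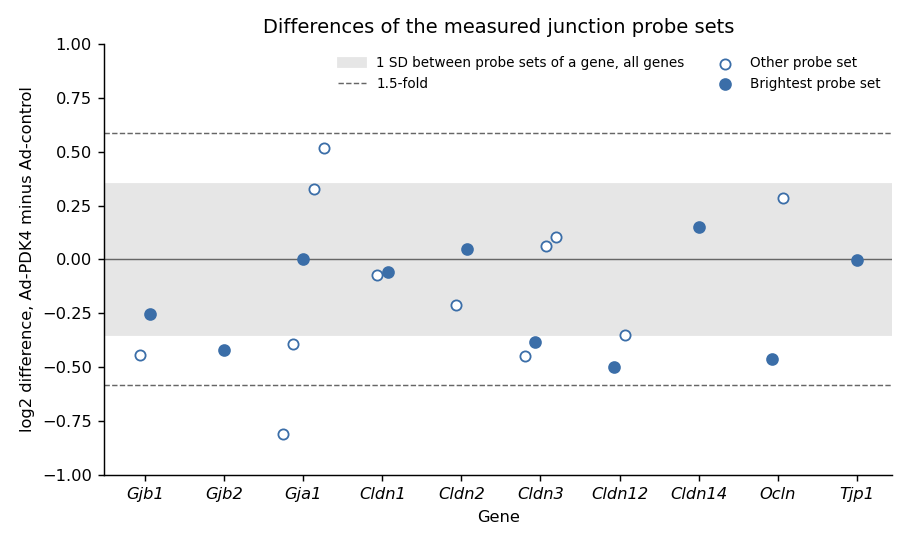
The difference of log2 signals, Ad-PDK4 less Ad-control, of each of the 22 measured junction probe sets, by gene; filled circles are the brightest probe set of a gene and open circles the others. The grey band is the SD of 0.35 between probe sets of the same gene and dashed lines mark 1.5-fold. Probe sets of Gja1 and Ocln spread over both sides of 0, while those of Gjb1, Gjb2 and Cldn12 lie below it.

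The connexin promoters are shown to set those of both hepatocyte connexins beside that of Gja1. The sequences are 250 bases before RefSeq transcript starts (GRCm38.p6), written in the direction of transcription. Capitals mark matches, on either strand, to 3 motifs: the GC box GGGCGG bound by Sp factors, the core GTTAAT of the site of HNF1 (a liver-enriched factor), and the AP-1 site TGANTCA. Over 32851 promoter windows of this length, 32.7% held a GC box, 6.43% the HNF1 core and 6.75% the AP-1 site; the motifs do not overlap each other here.

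Gjb1, chrX:101376985-101377234, plus strand: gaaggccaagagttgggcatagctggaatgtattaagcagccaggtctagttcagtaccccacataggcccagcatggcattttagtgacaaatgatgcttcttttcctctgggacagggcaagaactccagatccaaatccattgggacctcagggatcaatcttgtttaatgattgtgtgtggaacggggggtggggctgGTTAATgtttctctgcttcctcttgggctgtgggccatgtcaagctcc

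Gjb1, chrX:101383482-101383731, plus strand: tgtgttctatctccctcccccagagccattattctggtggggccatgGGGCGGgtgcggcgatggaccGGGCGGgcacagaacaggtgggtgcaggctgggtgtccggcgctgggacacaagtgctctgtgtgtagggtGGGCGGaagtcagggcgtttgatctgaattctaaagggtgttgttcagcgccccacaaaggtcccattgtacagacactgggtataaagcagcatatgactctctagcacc

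Gjb2, chr14:57104703-57104952, minus strand: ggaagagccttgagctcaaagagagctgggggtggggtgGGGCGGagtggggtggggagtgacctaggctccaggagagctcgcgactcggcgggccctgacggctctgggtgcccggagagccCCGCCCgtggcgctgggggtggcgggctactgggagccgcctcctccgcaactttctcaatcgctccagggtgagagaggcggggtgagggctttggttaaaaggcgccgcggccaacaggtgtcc

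Gja1, chr10:56377050-56377299, plus strand: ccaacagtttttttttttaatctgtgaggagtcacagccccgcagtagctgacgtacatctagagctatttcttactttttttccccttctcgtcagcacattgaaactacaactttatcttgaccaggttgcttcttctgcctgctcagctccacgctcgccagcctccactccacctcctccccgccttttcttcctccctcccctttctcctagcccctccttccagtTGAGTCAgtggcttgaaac

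RefSeq lists 4 starts for Gjb1, of which the 2 shown are those with a match; 1 holds the HNF1 core and the other 3 GC boxes. The Gjb2 window has a G and C content of 69.2% and 2 GC boxes, and the Gja1 window has 50% and 1 AP-1 match. The windows of Cldn1 and Tjp1, which are not shown, also hold 2 GC boxes each, at differences of -0.058 and -0.0016. The Cldn3 window and windows of Cldn12 and Ocln hold a GC box as well. The HNF1 core is also found in the Cldn1 window and in a window of Cldn14, which had a difference of 0.15. A match is a description of the letters, no relation of motifs to the differences was tested, and which Gjb1 start these livers used was not measured.

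Among the claudins, Cldn12 was lower on both of its probe sets, and the other 4 differed by little or in both directions. Cldn12, a claudin that lacks the usual tail for binding ZO proteins, had the lowest value of all 10 genes in the reported processing. Its probe set 1433781_a_at read 7588 in Ad-control and 5311 in Ad-PDK4 (-0.50, or 1.41-fold lower), and 1433782_at read 3408 and 2642 (-0.35). Of the 500 probe sets of closest signal, 8.4% were at least as far from 0 as the brighter one and 21.6% as far as the other. Ocln was slightly lower than Cldn12 with loess centring (-0.471 against -0.452) and quantile normalization (-0.495 against -0.488). Without probe sets of shared or mixed probes, Cldn12 stood at -0.35 and Ocln at -0.46.

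Cldn3, a sealing claudin prominent in liver, was read by 4 probe sets that split evenly. Probe set 1460569_x_at gave 2560 in Ad-control and 1943 in Ad-PDK4 (-0.38), and 1426332_a_at gave 927.4 and 673.4 (-0.45). Against these, 1434651_a_at gave 1931 and 2054 (0.10), and 1451701_x_at gave 1683 and 1738 (0.061). The median of the 4 was -0.16, so the value of the brightest probe set overstates what they share. Cldn3 lies next to Cldn4 in RefSeq gene order, and Cldn4 was near the floor, at 117.2 and 90.2.

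Cldn1, a sealing claudin and an entry factor of hepatitis C virus in human liver, was nearly equal in the pools. Its brighter probe set 1437932_a_at read 1498 and 1425 (-0.058), and 1450014_at read 184.3 and 173.6 (-0.072). Its other 2 probe sets were under the floor on both arrays, among them 1438850_at with 3.2 and 36, a range where signals carry no order. Cldn2, which forms pores for cations and water, read 2941 in Ad-control and 3014 in Ad-PDK4 on 1417231_at (0.050) and 836.7 and 715.4 on 1417232_at (-0.21). Both values are inside the probe set SD. Cldn14, known from the inner ear and kidney, was faint at 207.3 and 228.1 (0.15), and 75.8% of probe sets of that brightness lay as far from 0.

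Occludin had no settled direction, and the difference of Tjp1 rounded to 0. Ocln had 2 probe sets of opposite sign: 1448873_at read 855.6 in Ad-control and 614.2 in Ad-PDK4 (-0.46), and 1440220_at read 263.3 and 317.5 (0.28). Their median of -0.090 was close to 0, and the sources used here do not say which probe set reads the main transcript. Marveld2 (tricellulin, the occludin relative at 3-cell contacts), which lies beside Ocln in RefSeq gene order, read 613.0 and 626.5 (0.046). Tjp1, the scaffold that ties claudins to actin, had 1 probe set, with 2075 and 2052, and 99.2% of probe sets of its brightness lay as far from 0 or farther. Its paralog Tjp3 was as close, at 259.4 and 256.2. In all, 7 junction genes had more than 1 measured probe set, and in 3 of these (Gjb1, Cldn1 and Cldn12) all measured probe sets lay on the same side.

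**Figure D3:**
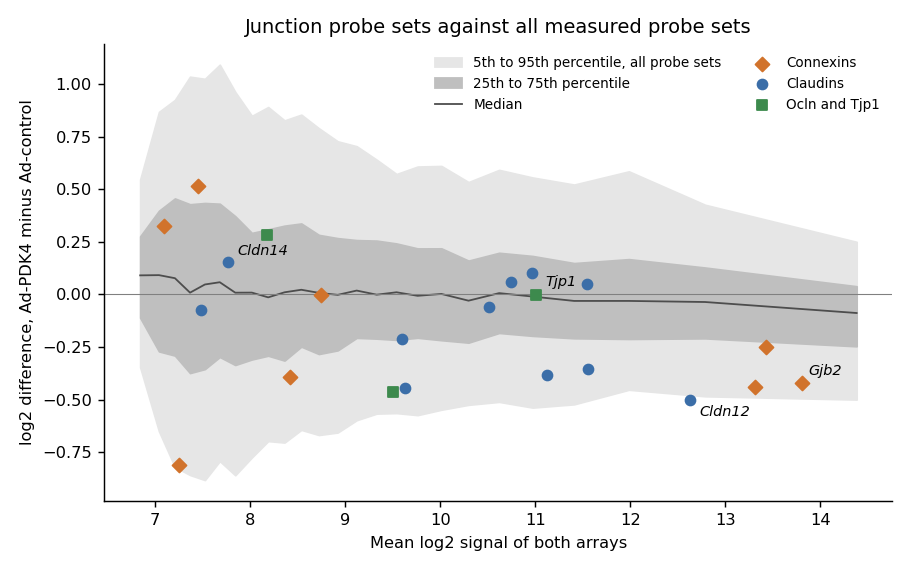
The log2 difference of the 22 measured junction probe sets against their mean log2 signal, over the spread of all 20151 measured probe sets in 25 bins of signal (light band 5th to 95th percentile, dark band 25th to 75th, line the median). Cldn12 lies at the lower edge of the light band and Tjp1 on the median line; the spread is wider at low signal, where the Gja1 probe sets lie.

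Other connexins and claudins were mostly too faint to compare. Of 14 other connexins and pannexins matched, 13 were under the floor on both arrays, including Gja3 and Gjb6, the neighbours of Gjb2. The exception was Gja4, a connexin of vascular endothelium, with 216.1 in Ad-control and 144.9 in Ad-PDK4 (-0.56). Of 15 other claudins, 2 were measured on both arrays, 3 on 1 array and 10 on neither. Cldn5, the endothelial claudin, read 439.1 and 257.5 (-0.76, or 1.69-fold lower), and Cldn15 read 147.6 and 114.1 (-0.36). Both endothelial genes were lower in Ad-PDK4, each on a single probe set of modest signal.

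Of the other tight junction and polarity genes, 24 of 28 were measured on both arrays, with 18 below 0, 6 above and a median of -0.090. The share of all measured genes below 0 was 48.4%. None (0 of 24) reached 1.5-fold on the higher side and 1 did on the lower side, where 9.21% and 5.20% of the measured genes did: Cgn (cingulin, which links the junction to actin and myosin), at 537.1 and 321.3 (-0.73). Patj, a polarity scaffold, was next lowest at -0.51. Ildr2 (0.55) and Pard3, a polarity protein (0.26), were the highest, but Ildr2 gave -0.46 and Pard3 -0.23 on another probe set.

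Most adherens junction and desmosome genes lay below 0. All 17 were measured, 14 lay below 0, 3 were at least 1.5-fold lower and 0 higher, and the median was -0.27. Dsp (desmoplakin, which anchors keratin at desmosomes) was the lowest at 4632 in Ad-control and 2417 in Ad-PDK4 (-0.92), and its 3 probe sets ranged from -1.08 to -0.81. Dsc2, a desmosomal cadherin, was at -0.67, with -0.15 on its other probe set, and Cdh1 (E-cadherin) read 1668 and 1083 (-0.61). On the other side, Ctnnb1 (beta-catenin) was at 0.28 on 3 probe sets that lay between 0.23 and 0.28, and Cdh2 (N-cadherin, also strong in hepatocytes) at 0.23 and 0.54. E-cadherin and N-cadherin thus differed in opposite directions. The 1.5-fold counts are read against the 5.20% lower and 9.21% higher of all genes, and the count below 0 against 48.4% of them. No test of the list was made.

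Membrane genes of the bile canaliculus, the channel that hepatocyte tight junctions seal, had a median of -0.29 with 10 of 10 measured. Of them, 1 was at least 1.5-fold lower and 0 higher, where 5.20% and 9.21% of all measured genes were. The lowest were Abcb11, the bile salt export pump (-0.74), and Abcg5, of the sterol exporter (-0.44). The highest of the 10 listed were Ezr, a membrane-to-actin linker (0.39, with -0.45 on its other probe set), and Abcb4, the phospholipid exporter (0.017). Ezr read only 551.6 in Ad-control and 717.2 in Ad-PDK4, where Rdx, also listed, read 7370 and 5882 (-0.31). Which liver cells the Ezr signal came from was not measured.

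**Figure D4:**
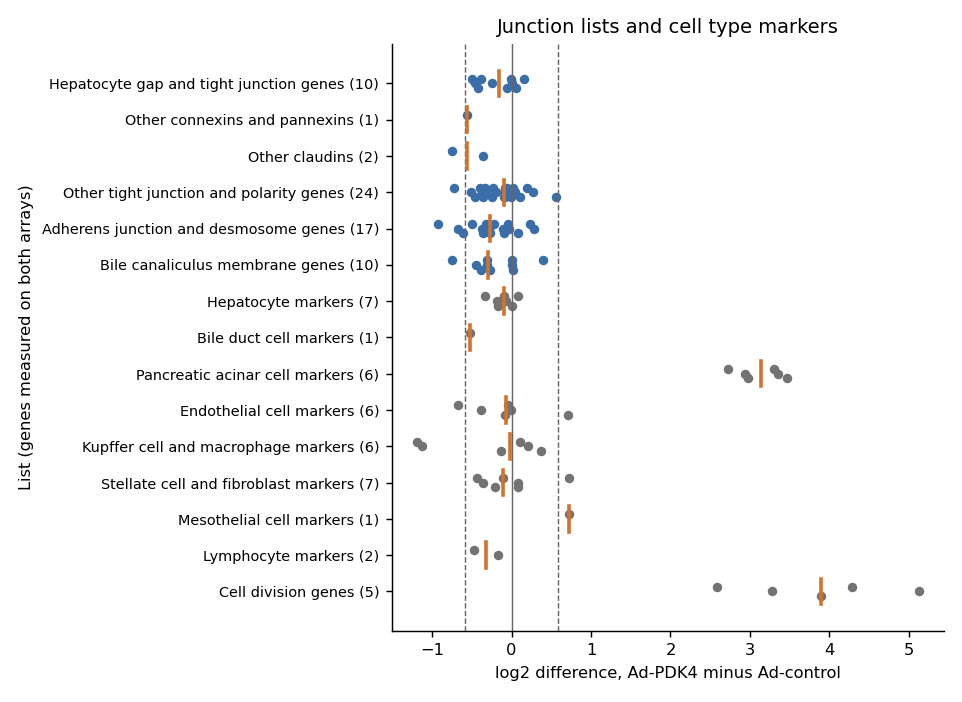
The log2 difference of every gene measured on both arrays (points; junction and canaliculus lists blue, cell type markers and cell division genes grey) with the list median (orange bar); the number of genes is in brackets and dashed lines mark 1.5-fold. The 10 junction genes lie between -0.50 and 0.15, while the acinar markers lie above 2.7.

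Markers of some other cells differed between the pools, and their values stand beside the junction genes because several of those genes are not confined to hepatocytes. Pancreatic acinar cells also express Gjb1 and Gjb2; all 6 matched acinar markers were higher in Ad-PDK4, by 2.72 (Prss2), 2.93 (Cel), 2.98 (Cpa1), 3.31 (Cpb1), 3.35 (Cela3b) and 3.46 (Ctrb1), with a summed signal of 6371 in Ad-control and 55819 in Ad-PDK4. The 5 cell division genes were higher by 2.59 (Top2a), 3.27 (Birc5), 3.89 (Mki67), 4.28 (Ccnb2) and 5.13 (Cdc20). Both lists were higher where Gjb1 and Gjb2 were lower, and their part in the connexin values was not tested.

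Bile duct markers were near or under the floor (Epcam 266.4 and 184.2, Krt19 122.9 and 16.9, and Krt7, Sox9 and Cftr under it on both arrays), with summed signals of 528.0 and 338.6. Endothelial markers had a median of -0.067, from Cdh5 (-0.68) and Kdr (-0.38) to Tek (-0.00071) and Pecam1 (0.71), and summed to 9025 and 8209. Stellate cell markers had a median of -0.11, from Col1a1 (-0.43) and Reln (-0.36) to Lrat (0.086) and Des (0.72), and summed to 15989 and 13692. Kupffer cell markers had a median of -0.015, but Vsig4 (-1.19) and Clec4f (-1.13) were lower while Adgre1 (0.21) and Cd68 (0.37) were the highest, with sums of 8398 and 7730. Mesothelial markers were faint and went both ways: Upk1b read 106.2 in Ad-control and 174.1 in Ad-PDK4 (0.73), Upk3b read 157.2 and 99.3 and was under the floor in Ad-PDK4, and Msln and Wt1 were under it on both arrays, with sums of 367.9 and 389.7. Lymphocyte markers were faint as well (2 of 5 measured, Cd79b at -0.47 and Ptprc at -0.17), with sums of 916.2 and 761.4. No marker was listed at 0. Hepatocyte markers had a median of -0.096, from Cps1 (-0.34) and Hnf4a (-0.18) to Apoa1 (0.0097) and Alb (0.079). In pooled tissue RNA, fewer cells of a type and less RNA per cell cannot be told apart, and the part of cell makeup in the values of Gja1, Gja4 and Cldn5 was not tested.

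**Figure D5:**
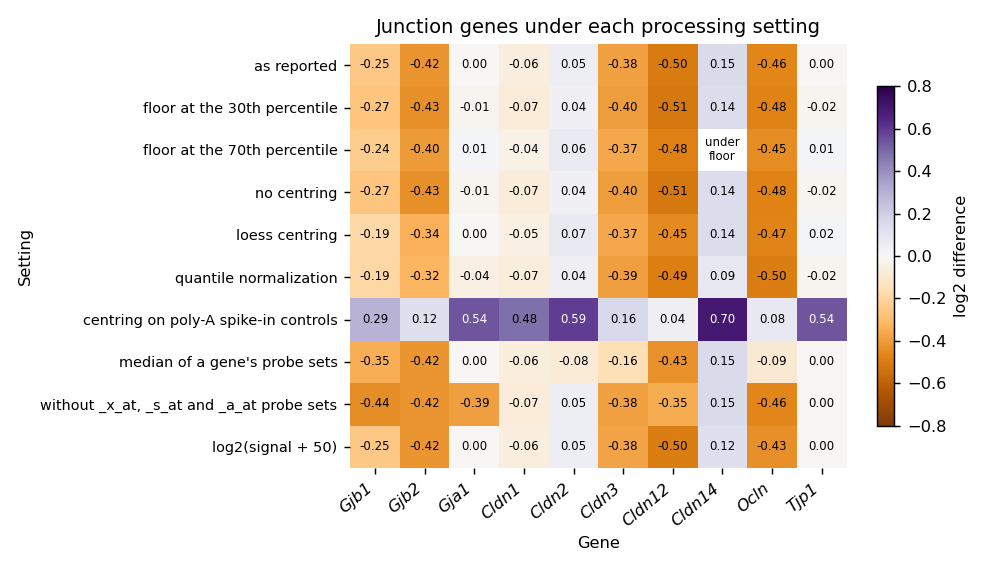
The log2 difference of each junction gene (columns) under the reported processing and 9 alternatives (rows); colour and printed number give the value. Centring on the poly-A spike-in controls turns every gene above 0. Among the other settings the 10 genes stay within 1.5-fold, and Ocln, Cldn3 and Gja1 depend on the probe set used.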

How the data were processed

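The data are 2 arrays, 1 per pool. The authors deposited 1 linear signal intensity per probe set for 45101 probe sets. The sources used here name no summary method or software; the mean without the highest and lowest 2% is 500 on both arrays, the value that scaling to a common target gives. Probe sets were named from the platform annotation: 34945 carried 1 symbol, 932 several and 9160 none, with 64 control probe sets set aside; 34741 were found by Entrez identifier in the RefSeq table (GRCm38.p6) and 0 symbols changed.

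Signals were converted to log2 with no pseudocount. Measured probe sets reached the 50th percentile of non-control probe sets, and the shift removed by centring was -0.015. A probe set under this floor on 1 array has only a bound, and under it on both no difference. With n = 1 per group, no p-value was computed, and genes at least 1.5-fold apart were counted. The calculation was tested on simulated data. The 9 alternatives varied the floor, the centring, the probe set and a pseudocount. All 10 members and, in other lists, the 2 highest and 2 lowest genes and those past 1.5-fold were named, with Tjp3 and Marveld2 as relatives of members; a gene that the rule also names is not reported here. The members, lists and motifs were chosen with earlier results of these data known. Promoters came from the RefSeq table (10 of 10 members matched, 18 windows). Python 3.11.15, pandas 2.3.3 and statsmodels 0.14.6 were used.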

Additional observations from a re-analysis of the deposited data

How the results depend on the processing

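Centring on the poly-A spike-in controls changed the picture: 2 junction genes (Cldn2 and Cldn14) were then at least 1.5-fold higher, 0 lower, and the median of the 10 was 0.39 in place of -0.15. That reference moved the whole array with them: 4856 of 10389 genes were at least 1.5-fold higher and 41 lower, against 957 and 540 as reported. Under the other 8 alternatives 0 junction genes were 1.5-fold apart in either direction. Of 89 single values under all 9 alternatives, 77 were within the probe set SD of the reported value and 12 were not: the 10 with spike-in centring, Ocln as the median of its probe sets (-0.090) and Gja1 without probe sets of shared or mixed probes (-0.39). Cldn14 was under the floor at the 70th percentile and has no value there. Signals near the floor limit Cldn14 and most Gja1 probe sets. No paired analysis was possible because each group is 1 array.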

Other observations

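Cxadr, a tight junction protein that is also the cell surface receptor of many adenoviruses, was singled out after its values were seen. Uptake of the vector was not measured. Its brightest probe set read 2734 in Ad-control and 2559 in Ad-PDK4 (a log2 difference of -0.081). The other measured probe sets gave -0.26, 0.038 and 0.18, so that the 4 lay on both sides of 0 and inside the probe set SD of 0.35. The remaining probe set was under the floor on both arrays.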
